A study of Mus musculus with 12 samples.

Results

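The regions described here were open in mouse embryonic fibroblasts (MEF) by the study's own interval lists, lay in no list of a later reprogramming stage, and were away from the ends of genes. A region belonged to this class if it overlapped an interval of the MEF list by at least 1 bp and no interval of the Stage1, Stage2 or iPSC list, and lay more than 1 kb from both ends of every protein-coding gene (build mm10). Of the 115000 regions of the common list, 61616 (53.6%) were such members, and a further 3104 regions were MEF-only but at or within 1 kb of a gene end. The lists were made from the same libraries as the counts, so the contrast of MEF with the later stages chose the members. That contrast is given below as a description, with no test.

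The study measured chromatin accessibility by ATAC-seq, in which the Tn5 transposase cuts open DNA and leaves sequencing adapters, at 4 stages of the conversion of fibroblasts into induced pluripotent stem cells (iPSC). The groups were MEF, unsorted; Stage1, at day 6, sorted as Oct4-GFP+; Stage2, at day 6 + 4, sorted as Oct4-GFP+; and established iPSC, sorted as Oct4-GFP+. All 12 libraries, 3 per group, came from the strain labelled Mixed (C57BL/6 x 129), and the protocol is called 3c enhanced reprogramming in the labels. The sort was applied in every group but MEF, so sorting and stage cannot be told apart in any contrast with MEF. Library totals ran from 25916834 to 32229388 reads in MEF, of which 11.3% to 22.1% lay in regions. They ran from 14310290 to 18859828 in Stage1 (7.36% to 8.12% in regions), from 25105948 to 26918384 in Stage2 (5.31% to 6.91%) and from 23024328 to 26220683 in iPSC (4.49% to 5.25%).

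Regions away from gene ends include enhancers, stretches of DNA where transcription factors bind and act on promoters that can be far away in the sequence. Which enhancers are open differs between cell types more than which promoters are open. In fibroblasts they are typically bound by AP-1 (dimers of Fos and Jun proteins), TEAD, RUNX and CEBP factors. In pluripotent cells enhancers are typically bound by Oct4, Sox2, Nanog, Klf4 and Esrrb.

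Members that hold the start of a transcript were the ones whose sequence could be read, since a start can lie far from the ends of protein-coding genes when it belongs to a noncoding RNA or an internal start of a longer gene. Of 32851 RefSeq windows of 300 bases (250 before and 50 after a start, GRCm38.p6, the assembly behind mm10), 447 lay wholly inside a member, of which 296 belonged to long noncoding RNAs and 151 to protein-coding genes. The 250 bases before the start are shown for 6 of them, 5′ to 3′ on the strand of the gene. These 6 were picked for AP-1, TEAD or E-box matches, or as a known fibroblast gene without any of these. Capitals mark matches to AP-1 (TGANTCA), TEAD (GGAATG) and an E-box of the Twist type (CATCTG), on either strand. RUNX and CEBP letters, which are counted below, are not marked.

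A530046M15Rik, a long noncoding RNA, chr13:15806993-15807242, plus strand: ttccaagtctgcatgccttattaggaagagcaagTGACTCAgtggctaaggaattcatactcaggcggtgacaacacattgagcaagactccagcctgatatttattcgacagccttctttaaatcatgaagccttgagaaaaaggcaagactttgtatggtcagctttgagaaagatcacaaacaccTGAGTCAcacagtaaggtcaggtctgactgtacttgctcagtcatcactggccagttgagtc
Epb41l1, a membrane skeleton protein, chr2:156475284-156475533, plus strand: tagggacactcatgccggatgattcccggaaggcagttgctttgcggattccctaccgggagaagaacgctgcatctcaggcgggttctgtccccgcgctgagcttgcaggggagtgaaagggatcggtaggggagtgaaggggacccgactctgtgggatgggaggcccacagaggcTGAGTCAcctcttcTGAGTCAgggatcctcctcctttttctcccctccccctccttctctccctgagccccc
Creb5, a transcription factor of the CREB and ATF family, chr6:53573124-53573373, plus strand: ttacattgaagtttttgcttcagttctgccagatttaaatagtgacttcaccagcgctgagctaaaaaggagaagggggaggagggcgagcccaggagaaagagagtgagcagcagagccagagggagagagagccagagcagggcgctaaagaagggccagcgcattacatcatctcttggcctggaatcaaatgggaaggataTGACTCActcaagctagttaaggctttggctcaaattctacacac
Slc20a1, a sodium-dependent phosphate transporter, chr2:129206846-129207095, plus strand: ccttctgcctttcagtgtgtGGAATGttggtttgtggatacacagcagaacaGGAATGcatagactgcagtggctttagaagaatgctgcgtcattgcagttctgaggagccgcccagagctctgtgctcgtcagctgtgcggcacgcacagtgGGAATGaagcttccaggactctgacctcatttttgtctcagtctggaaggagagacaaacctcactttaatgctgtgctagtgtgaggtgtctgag
Dnm3os, a noncoding RNA that is the host of miR-199a and is antisense to Dnm3, chr1:162217373-162217622, plus strand: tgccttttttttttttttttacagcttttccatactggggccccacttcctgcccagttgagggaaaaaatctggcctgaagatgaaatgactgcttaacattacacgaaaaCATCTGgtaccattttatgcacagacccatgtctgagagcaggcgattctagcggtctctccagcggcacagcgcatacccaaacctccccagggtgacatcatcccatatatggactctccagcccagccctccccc
Postn, the matrix protein periostin, chr3:54360857-54361106, plus strand: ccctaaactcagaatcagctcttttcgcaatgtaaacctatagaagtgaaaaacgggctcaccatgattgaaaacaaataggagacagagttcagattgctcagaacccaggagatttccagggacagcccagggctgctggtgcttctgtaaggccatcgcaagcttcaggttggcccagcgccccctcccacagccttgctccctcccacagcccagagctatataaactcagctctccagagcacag

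The window of A530046M15Rik held AP-1 matches 216 to 210 and 62 to 56 bases before the start, and that of Epb41l1 held them 72 to 66 and 58 to 52 bases before it. The window of Creb5 held 1 AP-1 match, 45 to 39 bases before the start. That of Slc20a1 held TEAD matches starting 230, 198 and 96 bases before it. The Dnm3os window held an E-box 138 to 133 bases before the start, and the Postn window held none of these 3 motifs. The windows of Postn and A530046M15Rik did hold CEBP letters (TTGCNNAA, on either strand), which are not marked. The members around these starts had many reads in MEF and few afterwards. The region at A530046M15Rik (chr13:15806501-15807550) had 360, 308 and 161 reads in the MEF libraries, then 3, 6 and 8 in Stage1, 3, 5 and 4 in Stage2, and 8, 10 and 5 in iPSC. The region at Slc20a1 (chr2:129206551-129207350) went from 211, 233 and 111 reads in MEF to 4, 10 and 9, then 21, 14 and 12, then 14, 7 and 7. The region at Postn (chr3:54360751-54361400) had 90, 56 and 31 reads in MEF and between 1 and 6 in each later library. In all 3 the later libraries lay below the lowest MEF library, which is what the rule selects.

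AP-1 letters were found in 30.0% of the 447 windows inside members, on either strand. The share was 14.1% of 474 windows inside MEF-only regions at gene ends, 3.63% of 8847 windows inside regions of all 4 stage lists, and 7.81% of all 32851 windows. TEAD letters were in 29.8% of the windows inside members, against 16.9%, 10.8% and 14.7% in the same order, and RUNX letters (TGTGGT) in 29.1%, against 15.4%, 10.6% and 16.8%. CEBP letters (TTGCNNAA) were in 15.9% against 10.8% of all windows, and the E-box in 24.4% against 17.2%. The letters of factors of pluripotent cells were not more frequent than in all windows: the POU octamer (ATGCAAAT) was in 1.57% against 1.74%, SOX (ACAATGG) in 3.58% against 3.66%, ESRRB (TCAAGGTCA) in 0.224% against 0.423%, and KLF (GGGTGTGG) in 3.13% against 3.56%. CTCF letters were in 2.68% inside members and 6.96% inside regions of all 4 lists. No 2 of these motifs are the same letters, but matches of different motifs could overlap, and windows of the same gene or region share bases.

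The windows inside members also differed in composition, with a median GC content of 51.3% and 5 CpG, against 63.0% and 24 CpG for windows inside regions of all 4 lists and 52.7% and 7 CpG for all windows. The part of composition and of gene type in the motif shares was not tested. The shares of AP-1, CEBP and E-box letters by gene type are given as a description. AP-1 letters were in 34.1% of the noncoding windows inside members against 9.31% of all noncoding windows. They were in 21.9% of the coding windows inside members against 6.99% of all coding windows. In the same order, CEBP letters were in 18.2% against 11.952% of noncoding windows, and in 11.3% against 10.2% of coding windows. The E-box was in 28.4% against 21.8% of noncoding windows, and in 16.6% against 14.6% of coding windows. For CEBP and the E-box, coding windows inside members thus stood close to all coding windows. These shares describe the 447 windows with a start, not the members without a start.

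**Figure D1:**
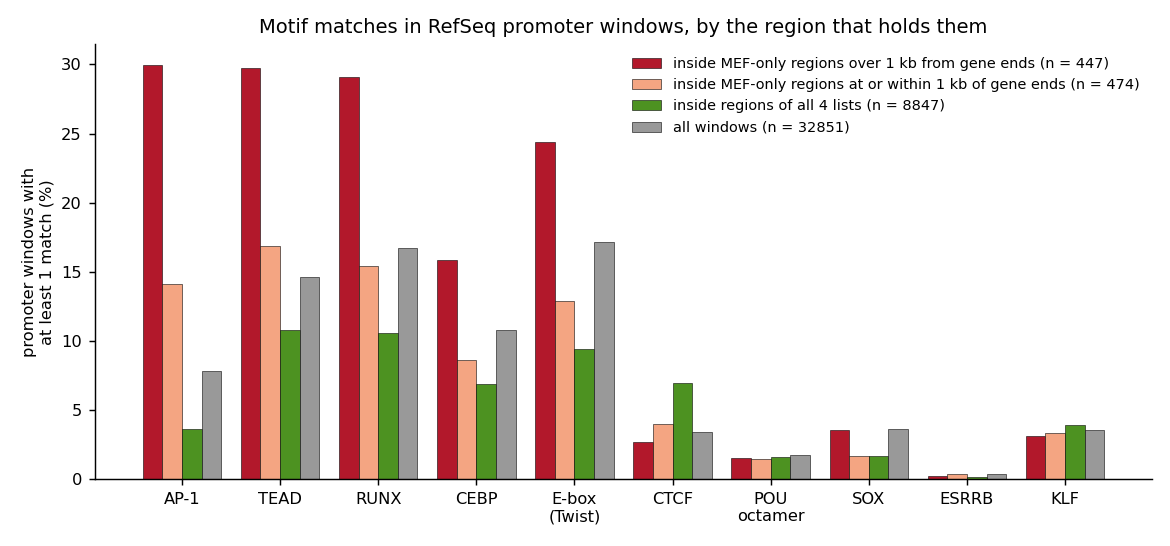
Share (%) of RefSeq promoter windows of 300 bases with at least 1 match to each motif, for windows inside MEF-only regions over 1 kb from gene ends (n = 447), inside MEF-only regions nearer to gene ends (n = 474), inside regions of all 4 lists (n = 8847) and for all windows (n = 32851). AP-1, TEAD and RUNX matches stand at 30.0%, 29.8% and 29.1% in the first class, against 7.81%, 14.7% and 16.8% of all windows.

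Members also covered miRNA genes: 29 of 1228 miRNA hairpins with coordinates overlapped 28 members, and 27 of the 29 had a mature sequence in the RefSeq table. The mature strands of 3 hairpin groups are shown because they are known for roles in mesenchyme, muscle and growth arrest. Capitals mark the seed, bases 2 to 8, through which a miRNA pairs with its targets.

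mmu-miR-199a-5p: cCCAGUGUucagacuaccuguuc
mmu-miR-199a-3p: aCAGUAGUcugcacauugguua
mmu-miR-206-3p: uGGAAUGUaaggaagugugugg
mmu-miR-34a-5p: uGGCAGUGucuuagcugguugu
mmu-miR-34b-5p: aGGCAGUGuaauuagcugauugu

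The miR-34a and miR-34b strands share the seed GGCAGUG, a family known as a target of p53, and their hairpins lay in members on different chromosomes. The member at Mir34a (chr4:150068101-150068650) had 53, 44 and 17 reads in MEF, 1, 1 and 2 in Stage1, 8, 5 and 6 in Stage2, and 9, 9 and 5 in iPSC. The member at Mir34b (chr9:51103151-51104200), which is 1004 bp from a gene end, had 80, 65 and 39 reads in MEF, 11, 16 and 11 in Stage1, 23, 13 and 14 in Stage2, and 16, 16 and 21 in iPSC. Mir206, a miRNA of skeletal muscle, lay in chr1:20678751-20679300, with 139, 82 and 51 reads in MEF and between 0 and 8 in each later library. The hairpin of Mir199a-2 lay with the start of Dnm3os in chr1:162217151-162217950, which had 264, 207 and 91 reads in MEF, 7, 12 and 12 in Stage1, 5, 4 and 2 in Stage2, and 12, 5 and 9 in iPSC. Reads in a member say that the DNA was cut there, not how much of a miRNA was made.

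The members were short and spread over the genome. Their median width was 550 bp (interquartile range 450 to 650 bp), and they covered 34775550 bp in all. The median distance to the nearest end of a protein-coding gene was 36.4 kb, against 12.4 kb for the 4543 regions of all 4 lists that also lay over 1 kb from gene ends. Of the members, 49.9% (30735) lay inside a protein-coding gene and 26.0% (16021) more than 100 kb from any gene end. Chromosome X held 2.31% of them, and 2.37% of all regions. By chromosome, the share of regions that were members ran from 46.2% (chromosome 7) to 57.7% (chromosome 18) over the autosomes.

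To compare libraries of unequal depth and background, reads per kb in a class of regions were divided by reads per kb outside all regions of the same library. This relative read density is 1 where a region holds no more reads than the rest of the genome. Members stood at 11.5, 8.04 and 5.09 in the MEF libraries, a mean of 8.20 ± 3.19 (SD, n = 3). In Stage1 they stood at 0.992, 1.01 and 1.06, a mean of 1.02 ± 0.032. In Stage2 they stood at 0.927, 0.898 and 0.893 (0.906 ± 0.018), and in iPSC at 0.908, 0.913 and 0.907 (0.910 ± 0.003). The MEF libraries differed widely among themselves, yet the lowest of them, 5.09, stood far above the highest later library, 1.06. The median log2 difference of a member from MEF was -2.14 in Stage1, -2.15 in Stage2 and -2.12 in iPSC with whole-library scaling, and -1.68, -1.41 and -1.19 when scaled to reads in regions. At Stage1 the members held on average as many reads as the genome outside regions, and in Stage2 and iPSC slightly fewer. What the reads outside regions include, such as reads of mitochondrial DNA, is not known from the labels.

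As a share of all reads of a library, the members held 8.84% ± 2.90 in MEF, 1.24% ± 0.034 in Stage1, 1.12% ± 0.013 in Stage2 and 1.14% ± 0.003 in iPSC (SD, n = 3 each). The median member had 85 reads over the 3 MEF libraries, 8 over those of Stage1 and 12 over those of Stage2 and of iPSC. No member was without reads in MEF, while 195 had none in Stage1, 29 none in Stage2 and 38 none in iPSC, which allows up to 3 reads per group (counting error only). These are raw reads, not corrected for depth. The Stage1 libraries had fewer reads in total (14310290 to 18859828) than those of any other group. In these bulk samples, fewer cells with an open region and less opening per cell cannot be told apart.

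Among the later stages, the relative density of the members was slightly higher in Stage1 than in Stage2 and iPSC. The exact test could call no such difference, since 3 libraries against 3 allow no p below 0.1. The difference of Stage2 from Stage1 was -0.115 (SE 0.021) and that of iPSC from Stage1 was -0.111 (SE 0.019), each with exact two-sided permutation p = 0.1, the smallest that 3 against 3 allows, and 0.15 after adjustment over the 3 pairs. All Stage1 libraries lay above all Stage2 and iPSC libraries. The difference of iPSC from Stage2 was 0.0039 (SE 0.011, exact p = 0.8), and the ranges of these groups overlapped. The later pairs share libraries, so their values are not independent of each other.

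**Figure D2:**
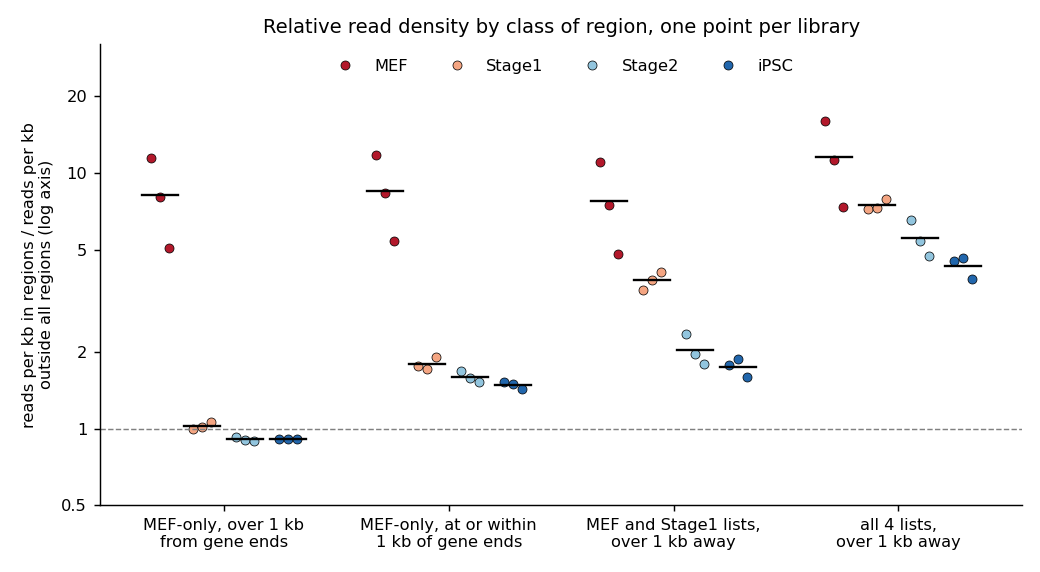
Relative read density (reads per kb in regions over reads per kb outside all regions, log axis) of 4 classes of regions, with 1 point per library and a bar at the mean of the 3 libraries of a group. Members (left) stand near 1, the dashed line, in all 9 later libraries, while MEF-only regions at gene ends stand between 1.42 and 1.90 and regions of all 4 lists between 3.84 and 7.95.

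The nearest class by rule had a higher relative density at the later stages. MEF-only regions at or within 1 kb of gene ends had 8.52 ± 3.20 in MEF, 1.79 ± 0.099 in Stage1, 1.59 ± 0.082 in Stage2 and 1.48 ± 0.050 in iPSC. Within each later library, members had 0.585 times the relative density of these regions, a mean log2 ratio of -0.77 ± 0.068 (SD, lower in 9 of 9 libraries, exact two-sided sign-flip p = 0.00390625, the smallest for 9 libraries). In MEF the same log2 ratio was -0.06 ± 0.021, so the classes were close to each other there. Distal regions on the MEF and Stage1 lists only had 7.80 in MEF, 3.80 in Stage1, 2.04 in Stage2 and 1.75 in iPSC. Those 1752 regions differ from the members by the rule itself at Stage1, and they still stood above the members in Stage2 and iPSC.

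The later read density of members differed with their surroundings. It was set against 1 outside level per library, so a local background of reads was not taken off. The part of such a background was not tested. Members 1 to 2 kb from a gene end had a relative density of 1.45 ± 0.061 in Stage1, 1.33 ± 0.051 in Stage2 and 1.27 ± 0.030 in iPSC. Those over 500 kb away had 0.845 ± 0.039, 0.720 ± 0.022 and 0.645 ± 0.022. In MEF the same bins had 8.51 and 7.64, with SDs of 3.28 and 2.89. The bins in between fell in order at each later stage.

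In the later libraries, members close to a region on all 4 stage lists had a higher relative density than members far from any. Those regions include ones at gene ends, so this distance and that to a gene end can go together. Their separate parts were not tested, nor was the part of a local background of reads. Members within 10 kb of a region of all 4 lists (7492 of them) had 1.36 times the relative density of the others in the later libraries. The mean log2 ratio was 0.44 ± 0.058, with a range of 0.36 to 0.54 (higher in 9 of 9 libraries, exact sign-flip p = 0.00390625). By stage it was 0.39 in Stage1, 0.50 in Stage2 and 0.43 in iPSC, and it was 0.02 ± 0.015 in MEF. Members within 2 kb of such a region had 1.69 in Stage1 and 1.42 in iPSC, and those over 100 kb away had 0.902 and 0.765.

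Members inside and between genes differed less. Members inside protein-coding genes had a mean log2 ratio of 0.12 over members between genes in the later libraries (range 0.07 to 0.15, higher in 9 of 9, exact sign-flip p = 0.00390625), and 0.00 ± 0.020 in MEF. This split was chosen after the data were seen. The 821 members that overlapped a RefSeq promoter window had 9.25 in MEF, 1.499 in Stage1, 1.28 in Stage2 and 1.23 in iPSC. By contrast, the members with the most reads in MEF stood no higher later than the rest. The fifth of members with the highest MEF density (15 in MEF) had 0.988 in Stage1 and 0.871 in iPSC, and the fifth with the lowest (3.52 in MEF) had 1.06 and 0.942.

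**Figure D3:**
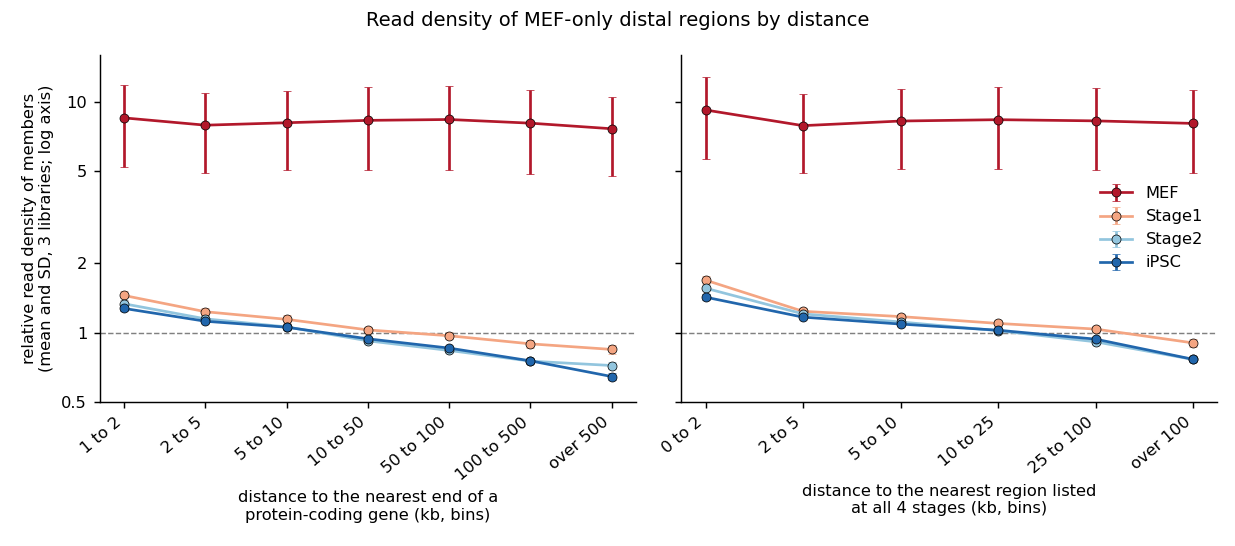
Mean relative read density of the members (log axis, bars are the SD over 3 libraries) by distance in kb to the nearest end of a protein-coding gene (left) and to the nearest region of all 4 lists (right), for each stage. The 3 later lines fall with distance, on the left from 1.45 to 0.845 in Stage1 and from 1.27 to 0.645 in iPSC. The MEF line on the left stands at 8.51 in the first bin and 7.64 in the last.

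Few single members stood above the genome after MEF. Members with more than 2 times the outside density in all 3 libraries numbered 1930 (3.13%) in Stage1, 1205 (1.96%) in Stage2 and 646 (1.05%) in iPSC. The outside level was 5.02 to 6.57 reads per kb in Stage1 and 8.34 to 9.61 in Stage2 and iPSC. The same cutoff thus stood for fewer reads in Stage1, where counting error passes it more easily. Among MEF-only regions at gene ends the shares were 18.9%, 15.7% and 9.63%. At the 1 kb limit of the rule the later values were lower just inside than just outside. The 201 members 1001 to 1100 bp from a gene end had 9.18 in MEF, 1.49 in Stage1, 1.37 in Stage2 and 1.31 in iPSC. The 196 MEF-only regions just outside the limit (901 to 1000 bp) had 9.16, 1.77, 1.53 and 1.38. The libraries of these bands did not overlap in Stage1 (1.41 to 1.60 inside, 1.64 to 1.93 outside) and overlapped in iPSC.

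The 6 members with the highest MEF level show the size of the loss at its extreme; they were ranked by that level, so their fall is not a result. The region chr1:158605401-158606750 lies within Astn1, a neuronal adhesion gene, and had 758, 655 and 297 reads in MEF, 7, 9 and 4 in Stage1, 5, 7 and 7 in Stage2, and 7, 10 and 10 in iPSC. The region chr12:98282651-98284000, between genes and 5929 bp from an end of Gpr65, had 758, 563 and 283 in MEF, 18, 8 and 16 in Stage1, 9, 8 and 7 in Stage2, and 3, 10 and 8 in iPSC. The relative density of the 6, the others being at Ank2, Khdrbs3, Rb1cc1 and Mcc, was between 39.0 and 51.5 in MEF on average and between 0.503 and 1.77 in the mean of each later stage.

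Each member was linked to the protein-coding gene it lay in or, if in none, to the gene with the nearest end, which does not show that it acts on that gene. Of 17973 genes linked to any region, 11225 had a member, with a median of 3 members and a maximum of 66, and 623 genes had 20 or more. The genes with the most were Tenm3 (66 members), a cell adhesion receptor; Zeb2 (65), a repressor of epithelial genes; Flrt2 and Pde4d (64 each); Cdh11 (63), the cadherin of mesenchymal cells; Cited2 (63), a transcriptional coregulator; Lpp (63), a focal adhesion protein; Adgrl3 (62); Efnb2 (61), the ligand ephrin-B2; and Myc (60). Long genes and gene deserts collect more regions: 49 of the Tenm3 members lay inside the gene, and none of the Myc or Cited2 members did. Pou5f1, the gene of Oct4, had 0 members among its 4 linked regions, and Nanog had 0 of 7.

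By gene group, the share of linked regions that were members was 79.0% (424 of 537) for extracellular matrix genes, 75.4% for integrins, cadherins and caveolins, 73.3% for fibroblast growth factors, receptors and surface markers, 72.0% for contractile and focal adhesion genes, 70.5% for the TGF-beta and BMP pathway, and 69.1% for mesenchymal transcription factors. The share over all regions was 53.6%. It was 35.2% (114 of 324) for the pluripotency network and 17.6% (9 of 51) for neural and neural crest genes. Because membership is defined by the stage lists, these shares describe the choice and carry no test.

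Unsorted fibroblast cultures can hold other cells, and the shares of regions linked to marker genes of such cells were 69.2% for endothelium, 67.3% for macrophages and blood, 63.3% for skeletal muscle, 60.7% for cartilage and bone, and 45.5% for epithelium. Summed over their linked regions, the endothelium markers (8 genes, 120 regions) had 901 to 905 CPM (reads scaled to equal totals in regions) in MEF and 491 to 688 over the later libraries. The macrophage and blood markers had 319 to 323 in MEF and 228 to 284 later, and the skeletal muscle markers 320 to 331 in MEF and 194 to 297 later. The cartilage and bone markers overlapped, with 1090 to 1138 in MEF and 1068 to 1286 later. The epithelial markers (533 to 598 in MEF, 862 to 1022 later) and the neural and neural crest markers (179 to 210 in MEF, 525 to 701 later) were lower in MEF. The part of other cell types in the members was not tested. As a check of the labels, all MEF libraries were above all later libraries for 7 of 10 fibroblast genes, counting all their linked regions (not for Pdgfra, Fn1 and Dcn), and below them for 10 of 10 genes of pluripotent cells.

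**Figure D4:**
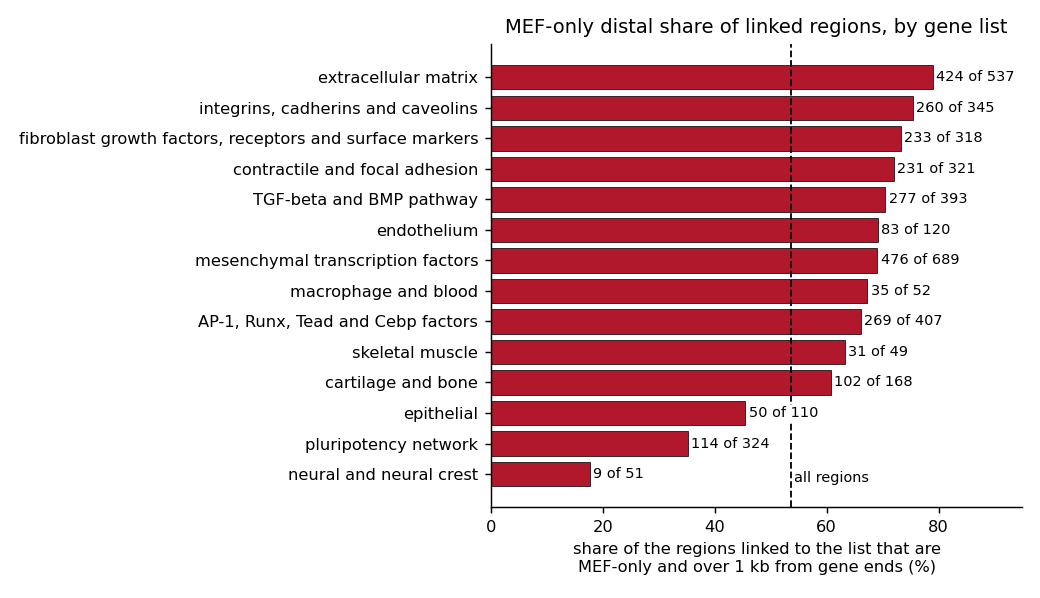
Share (%) of the regions linked to the genes of each list that are MEF-only and over 1 kb from gene ends, with the counts beside each bar and the share over all 115000 regions (53.6%) as a dashed line. Extracellular matrix genes are highest at 79.0% and neural and neural crest genes lowest at 17.6%.

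At single genes, the summed members of most named genes stood near or below 1 after MEF, with exceptions given below. The 51 members of Runx1, a transcription factor active in fibroblasts and blood, had a relative density of 11.2, 8.25 and 5.42 in MEF, 0.695, 0.798 and 0.848 in Stage1, 0.540, 0.601 and 0.736 in Stage2, and 0.648, 0.748 and 0.774 in iPSC. The 22 members of Col1a2, a chain of type I collagen, had 15.5, 10.01 and 5.59 in MEF, 0.988, 1.00 and 1.23 in Stage1, 0.689, 0.755 and 0.795 in Stage2, and 0.801, 0.999 and 0.860 in iPSC. The 23 members of Cd44, the hyaluronan receptor, were higher in MEF, at 17.4, 11.3 and 6.60, and later between 0.577 and 0.949. In all 3 genes every MEF library lay above every later library, as the choice of members favours.

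Transcription factor genes that mark the fibroblast state had the same order of levels. The 12 members of Twist2, a driver of mesenchymal identity, had 11.8, 10.1 and 6.82 in MEF, 0.813, 0.729 and 0.686 in Stage1, 0.461, 0.454 and 0.554 in Stage2, and 0.686, 0.669 and 0.659 in iPSC. The 14 members of Prrx1, a homeobox gene of limb and connective tissue, had 10.1, 6.83 and 4.61 in MEF and 0.954, 1.54 and 1.27 in Stage1, with 0.681 to 1.04 in the other later libraries. The 4 members of Fosl2, an AP-1 subunit, stood higher later. They had 1.75, 1.77 and 2.09 in Stage1, 2.38, 1.39 and 1.69 in Stage2, and 1.45, 1.67 and 1.29 in iPSC, against 18.8, 12.03 and 6.97 in MEF. Tead1, a DNA-binding partner of Yap1, also stayed above 1, with its 19 members between 1.07 and 1.81 in every later library.

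**Figure D5:**
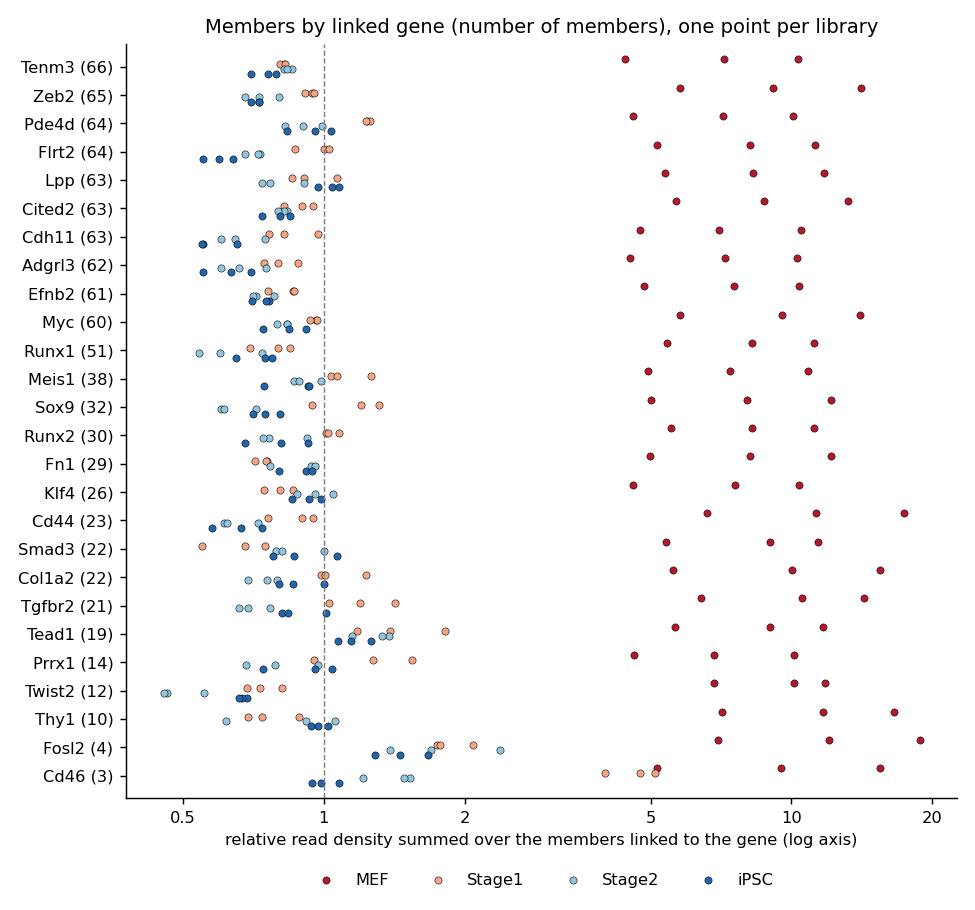
Relative read density (log axis) summed over the members linked to a gene, with 1 point per library and the number of members in brackets, for the genes with the most members and genes of the fibroblast state. The MEF points stand to the right of all later points of the same gene, most of which lie near the dashed line at 1; the 3 members of Cd46 had 3.98 to 5.11 in Stage1, close under their lowest MEF library at 5.17.

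Groups of members close together were common. Joined across gaps of at most 12500 bp, the members formed 33645 groups; 20056 members (32.6%) stood alone and 1865 groups of 5 or more held 19.7% of the members. The largest group had 22 members over 103.9 kb (chr1:71880301-71984200), linked to Mreg (17) and to Fn1 (5), the gene of fibronectin, with no other region in between. Its summed density was 12.9, 7.52 and 4.13 in MEF, 0.689, 0.612 and 0.683 in Stage1, 0.658, 0.713 and 0.745 in Stage2, and 0.809, 0.666 and 0.793 in iPSC. A group of 21 members lay in chr8:11322701-11418300 by Col4a2, a chain of basement membrane collagen, with 9.85 ± 3.60 in MEF and 0.926, 0.735 and 0.838 in the later stage means. A group of 18 at Adamts16, a secreted metalloprotease (chr13:70710501-70794800), had the highest mean MEF level of the 6 largest groups, 14.8 ± 5.87, and later 0.773 ± 0.11 in Stage1, 0.547 ± 0.12 in Stage2 and 0.565 ± 0.086 in iPSC.

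The later stages were tested against each other with edgeR's quasi-likelihood test on counts per region, fitted over the whole table, with Benjamini-Hochberg adjusted p under 0.05 called. The rule did not use these contrasts directly, but it left out any region that rose enough to be listed. Of the members, 24151 (39.2%) passed the filter on low counts, mostly through their MEF reads. Which direction the members took depended on the scaling. Reads in regions made up 7.64% of a library in Stage1, 6.03% in Stage2 and 4.94% in iPSC, so the same reads count for more in the later libraries when they are scaled to reads in regions than when scaled to the whole library.

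Scaled to reads in regions, members were more often higher than lower at each later step. From Stage1 to Stage2, 403 members were higher and 117 lower, 1.67% and 0.484% of those tested, where 6.14% and 4.30% of all tested regions were called higher and lower. From Stage2 to iPSC, 69 were higher (0.545% of all regions were) and 1 was lower (1.06% of all). From Stage1 to iPSC, 1787 were higher (8.55% of all) and 60 lower (6.98% of all), and the median log2 difference was 0.56 against 0.15 over all tested regions. Every one of these shares of the members was below that of all tested regions. With the MEF libraries and the filter left out, an alternative added after seeing the data, all 61616 members were tested. Then 418 were higher and 299 lower from Stage1 to Stage2 (3.42% and 4.87% of all regions), 102 and 8 from Stage2 to iPSC (0.430% and 1.47%), and 1562 and 213 from Stage1 to iPSC (4.25% and 8.31%).

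Scaled to whole libraries, with 49689 members tested, the median difference from Stage1 to iPSC became -0.08 and 270 members were higher (0.999% of all) against 782 lower (14.7% of all). From Stage1 to Stage2, 55 were higher (0.841%) and 319 lower (3.81%), and from Stage2 to iPSC 1 was higher (0.00807%) and 1 lower (0.319%). Called under both scalings were 25 higher and 117 lower from Stage1 to Stage2 (1.12% and 3.90% of all regions), 0 and 0 from Stage2 to iPSC (0.00985% and 0.414%), and 119 higher and 60 lower from Stage1 to iPSC (1.17% and 6.98%). At an unadjusted p under 0.05 in the Stage2 to iPSC comparison, 2417 members passed in the first scaling and 2193 in the second. DESeq2 called 1 member higher and 0 lower there. The counts in reads in regions moved with single libraries. Leaving out any 1 library of the pair left 648 (without Stage1 replicate 3) to 1088 members higher from Stage1 to iPSC, and 123 (without Stage1 replicate 3) to 276 higher from Stage1 to Stage2. From Stage2 to iPSC it left 5 (without Stage2 replicate 1) to 57 higher. Of the members lower from Stage1 to Stage2, 67 were left without Stage1 replicate 3 and 77 without Stage2 replicate 2.

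The 3 members named by the rule with a fall under both scalings that held without any single library had reads left in Stage1. The region chr1:195016801-195017150, 21821 bp from an end of Cd46, which encodes a complement regulator, had 26, 19 and 6 reads in MEF, 9, 16 and 23 in Stage1, 9, 6 and 7 in Stage2, and 4, 1 and 1 in iPSC. Its relative density was higher in Stage1 (7.87 ± 3.0) than in MEF (5.39 ± 3.5) on average, with overlapping libraries. From Stage1 to iPSC it fell by 2.85 on the log2 scale (SE 0.53, edgeR adjusted p = 4.68e-05), and by 3.48 (SE 0.56, adjusted p = 3.10e-07) with whole-library scaling. Within Rasgrf2, the region chr13:91911101-91911750 had 8, 8 and 4 reads in Stage1, 2, 1 and 1 in Stage2 and 3, 9 and 2 in iPSC, with a Stage1 to Stage2 difference of -2.52 (SE 0.68, edgeR adjusted p = 0.00771) in reads in regions and -2.88 (adjusted p = 0.00313) in whole libraries. Within Magi2, the region chr5:20634651-20635400 had 11, 9 and 7 reads in Stage1, 4, 1 and 2 in Stage2, and 7, 10 and 5 in iPSC, a fall of 2.18 (SE 0.54, edgeR adjusted p = 0.00354) and, in whole libraries, 2.55 (adjusted p = 0.00216). In the last 2 regions the iPSC libraries overlapped those of Stage1. No later library had 10 reads in the Rasgrf2 region, which passed the filter through MEF; without MEF libraries and filter its difference was -2.61 (edgeR adjusted p = 0.00382).

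The member with a rise under both scalings from Stage1 to iPSC that held without any single library, among those named by the rule, had no reads in Stage1. The region chr13:63717101-63717700, 93279 bp from an end of Ercc6l2, a DNA repair helicase gene, had 52, 71 and 27 reads in MEF, none in Stage1, 4, 5 and 3 in Stage2, and 2, 6 and 4 in iPSC. Set against a floor of 3 reads over the Stage1 group, iPSC was at least 4.18-fold higher in reads in regions and at least 2.70-fold higher in whole libraries (edgeR adjusted p = 0.00268 and 0.00736). Its mean relative density was 0.717 in Stage2 and 0.770 in iPSC, below the level outside regions. This region too passed the filter through MEF, and without MEF libraries and filter the edgeR adjusted p of iPSC against Stage1 was 0.00495.

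Sums over the members of a gene have more reads per test. Of 8994 genes tested, 2572 (28.6%) were higher and 16 lower from Stage1 to iPSC in reads in regions (14.0% and 16.3% of all gene sums in the table were), and of 10527 tested in whole libraries 81 were higher and 303 lower (0.648% and 34.1%). Under both scalings 66 were higher and 16 lower (0.630% and 16.3%). From Stage1 to Stage2 the counts were 512 and 68 in reads in regions (5.71% and 7.84%), 11 and 71 in whole libraries (0.360% and 4.67%), and 9 and 52 under both (0.366% and 4.85%). From Stage2 to iPSC they were 519 and 3 (3.04% and 4.10%), then 0 and 0 in whole libraries (0% and 0.0837%; 284 genes at an unadjusted p under 0.05). DESeq2 called 249 higher and 0 lower for that step in reads in regions. Leaving out 1 library left 1530 (without Stage1 replicate 3) to 2262 genes higher from Stage1 to iPSC, with 1553 without iPSC replicate 3. From Stage1 to Stage2 it left 168 (without Stage1 replicate 3) to 667 higher and 25 (also without Stage1 replicate 3) to 71 lower. From Stage2 to iPSC it left 72 (without Stage2 replicate 1) to 671 higher.

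The gene groups had more higher than lower genes in the first scaling and almost no calls in the second. From Stage1 to iPSC in reads in regions, 11 of 31 tested extracellular matrix genes were higher and 0 lower (median 0.55), 13 of 22 of the TGF-beta and BMP pathway were higher and 0 lower (0.62), 6 of 23 mesenchymal transcription factors were higher and 0 lower (0.38), and 6 of 12 of the pluripotency network were higher and 0 lower (0.60), where 28.6% of all tested genes with members and 14.0% of all gene sums were higher, and the median over the genes with members was 0.49. In whole libraries 0 genes of these 4 lists were higher, and 1 extracellular matrix gene and 1 mesenchymal transcription factor were lower. The medians were -0.03, 0.04, -0.23 and 0.12. The median over all tested genes with members was -0.08, and that over all gene sums was -0.54.

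The following genes rose in reads in regions, also without any single library. The 22 members of Smad3, a transducer of TGF-beta, had relative densities of 0.679, 0.550 and 0.750 in Stage1, 0.792, 0.816 and 1.00 in Stage2, and 0.862, 0.778 and 1.06 in iPSC, against 11.4, 9.02 and 5.39 in MEF. The log2 difference of iPSC from Stage1 was 1.06 (SE 0.17, edgeR adjusted p = 2.76e-06) in reads in regions and 0.49 (SE 0.29, adjusted p = 0.179) in whole libraries. The 29 members of Fn1 had 0.755, 0.751 and 0.713 in Stage1 and 0.915, 0.944 and 0.802 in iPSC, a difference of 0.89 (SE 0.15, adjusted p = 4.97e-06) and, in whole libraries, 0.30 (adjusted p = 0.420). The 26 members of Klf4, itself a reprogramming factor, had 0.744, 0.805 and 0.859 in Stage1 and 0.856, 0.985 and 0.928 in iPSC, with 0.82 (SE 0.15, adjusted p = 2.16e-05) and 0.24 (adjusted p = 0.541). The 10 members of Thy1, a surface marker of fibroblasts, had 0.887, 0.737 and 0.688 in Stage1 and 0.972, 0.936 and 1.02 in iPSC, with 0.97 (SE 0.20, adjusted p = 2.04e-04) and 0.38 (adjusted p = 0.352). None of these 4 genes was called in whole libraries, and their members in iPSC lay close to the level outside regions.

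For 8 of the 10 genes with the most members, the sign itself turned with the scaling. From Stage1 to iPSC, Tenm3 was 0.49 higher in reads in regions (SE 0.12, edgeR adjusted p = 0.00119) and -0.08 in whole libraries (adjusted p = 0.843). Its relative densities were 0.821, 0.808 and 0.825 in Stage1 and 0.759, 0.792 and 0.700 in iPSC. Cited2 was 0.47 and -0.11, and Efnb2 0.46 and -0.12, each called in the first scaling alone. Flrt2 was lower in both, at -0.07 (edgeR adjusted p = 0.685) and -0.65 (adjusted p = 0.0373, called in whole libraries). Lpp was higher in both, with 0.75 (SE 0.12, edgeR adjusted p = 1.81e-06) and 0.17 (adjusted p = 0.656).

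Of the named genes called under both scalings from Stage1 to iPSC, 3 that held without any single library are given here, each with few members. The single member of Rpusd2, a pseudouridine synthase gene, had 54, 65 and 19 reads in MEF, 0, 1 and 1 in Stage1, 8, 2 and 4 in Stage2, and 10, 3 and 10 in iPSC (edgeR log2 difference of iPSC from Stage1 3.40, SE 0.81, adjusted p = 9.62e-04; whole libraries 2.80, adjusted p = 0.00376). The 2 members of Txn1, the gene of thioredoxin, had 0, 1 and 2 reads in Stage1 and 17, 9 and 3 in iPSC (3.19, SE 0.70, edgeR adjusted p = 3.99e-04; whole libraries 2.59, adjusted p = 0.00247). MEF reads count toward the filter that both genes passed. Without MEF libraries and filter, the differences were 3.31 for Rpusd2 (edgeR adjusted p = 7.48e-04) and 3.12 for Txn1 (edgeR adjusted p = 2.31e-04). The 3 members of Cd46 went the other way, with 38, 28 and 47 reads in Stage1, 19, 20 and 16 in Stage2, and 13, 13 and 11 in iPSC, a fall of 1.59 (SE 0.26, edgeR adjusted p = 4.75e-06) and of 2.16 (adjusted p = 8.19e-07) in whole libraries. Their relative densities were 4.75, 3.98 and 5.11 in Stage1, 1.53, 1.49 and 1.21 in Stage2 and 0.984, 1.08 and 0.942 in iPSC, with no overlap between the 3 stages. Among these 3 members is the region chr1:195016801-195017150 given above, with 9, 16 and 23 of the Stage1 reads. The fall of the gene and that of the region therefore share reads.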

How the data were processed

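ATAC-seq reads were counted per region in 12 libraries, 3 per group. Per the submitters' processing notes, reads were handled with HTSeq 0.5.4p3, DESeq2 1.12.4 and Bowtie2 2.2.6, besides SAMtools 0.1.19 and Picard 2.6.0, on build mm10; the deposited files hold raw counts per region, and the authors' stage lists hold intervals found in all 3 replicates. The peak caller, duplicate removal and read shift are not given in the sources used here. The labels do not say that replicates were separate cultures, and every p-value here therefore reflects library-to-library spread that could be technical alone.

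Regions were joined to the lists and to RefSeq genes in Python 3.11.15. Counts were fitted in R 4.3.3 with edgeR 4.0.16 (robust quasi-likelihood, TMM, filterByExpr with minimum counts of 10 and 15, Benjamini-Hochberg adjusted p under 0.05), with 1 model for 4 groups, over all regions and over sums per gene. DESeq2 1.42.0, whole-library scaling, other filters, a replicate block and leaving out each library were alternatives. On simulated counts for Stage2 against Stage1 over 70245 regions, 2% of members changed 2-fold and 40% of those changed 4-fold were recovered. The changed members were drawn from those that passed the filter on low counts. These shares therefore do not cover the members that failed it, which could not be called. A motif search planned over region centres was run on RefSeq promoter windows only, and sequences of other members were not analysed here. Exact tests were two-sided; intervals and floors cover counting error only. Named genes were the 10 with the most members, the 2 of each list with the most, a set of fibroblast and pluripotency genes, and per later comparison the 4 largest rises and 4 largest falls among called genes whose libraries do not overlap. Named regions were the 6 highest in MEF, the 3 largest rises and falls by the same criterion, and the 6 largest groups. Members and lists were chosen with earlier results of these data known.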

Additional observations from a re-analysis of the deposited data

How the results depend on the processing

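Counts of called members are given as higher and lower. With whole-library scaling they were 55 and 319 from Stage1 to Stage2, 1 and 1 from Stage2 to iPSC, and 270 and 782 from Stage1 to iPSC. Genes gave 11 and 71, 0 and 0, and 81 and 303 in the same order. DESeq2 gave 42 and 27, 1 and 0, and 365 and 30 members, and for genes 307 and 19, 249 and 0, and 6 lower from Stage1 to iPSC. DESeq2 size factors in edgeR gave 4 lower (Stage2 to iPSC) and 93 lower (Stage1 to iPSC), and no filter on low counts gave 3 and 135. With later libraries alone and no filter, 299, 8 and 213 members and 5 genes (Stage2 to iPSC) were lower. With whole-library scaling in addition, members gave 188 and 797, 51 and 68, and 462 and 1455, and genes 84 and 517, 60 and 43, and 228 and 810. That scaling, with or without the other libraries, reversed the Stage1 to iPSC difference of Tenm3 (-0.0827 and, with later libraries alone, -0.0826), Cited2 (-0.11), Efnb2 (-0.12), Myc (-0.15) and Runx1 (-0.0687 and -0.0701). The cause was not tested.

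Deviations of same-numbered libraries from their group means had correlations between -0.024 and 0.064, and those of differently numbered libraries between -0.075 and 0.054. With few reads per region, this check cannot exclude that the numbers pair the libraries. A replicate block gave 344 and 104, 54 and 0, and 1631 and 55 members, and 498 and 61, 461 and 2, and 2585 and 15 genes. Members over 10 kb from gene ends had a relative density of 0.969 in Stage1, 0.847 in Stage2 and 0.857 in iPSC, and the median per member was 0.866, 0.801 and 0.814.

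Leaving out each library in turn gave 123 to 276 members higher and 67 to 144 lower from Stage1 to Stage2, 5 to 57 higher and 0 to 2 lower from Stage2 to iPSC, and 648 to 1088 higher and 57 to 84 lower from Stage1 to iPSC. Genes gave 168 to 667 and 25 to 71, 72 to 671 and 0 to 1, and 1530 to 2262 and 11 to 22. The density difference of iPSC from Stage2 ran from -0.00259 (without Stage2 replicate 3) to 0.0143 and changed sign also without Stage2 replicate 2 (-2.57e-05). Of 67 named results past the threshold, 24 held in each of these fits and 43 were lost in at least 1. About 8 to 12 reads per member and stage after MEF limit what single members can show.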
